A study of Mus musculus with 14 samples.

Results

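The mitochondrial ribosomal proteins were taken as every gene of the deposited table whose symbol begins with Mrpl or Mrps followed by a digit, and 78 of the 24972 genes listed met this rule. All 78 passed the filter on low values (10 or more, after rescaling, in 3 or more samples), with values between 140.9 and 4115 in single samples. By the subunit in which each protein is known to sit, 51 belong to the large subunit, 26 to the small subunit, and 1, Mrps36, is a subunit of the oxoglutarate dehydrogenase complex that carries the family name. Mrps18a and Mrps30 sit in the large subunit despite their symbols and were counted there. The genes lie on 17 chromosomes.

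The mitochondrial ribosome translates the few proteins that mitochondrial DNA encodes, all of them subunits of the respiratory chain and ATP synthase. Its RNA comes from mitochondrial DNA, and its proteins come from nuclear genes, are made in the cytosol and are imported. Some of these proteins have a counterpart in the bacterial ribosome, and others are found in mitochondria alone. The heart has a high density of mitochondria, and inherited defects of several of these genes, among them MRPL3, MRPL44, MRPS14 and MRPS22, cause cardiomyopathy in people.

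Messenger RNA was sequenced from the ventricles of male mice of the C57BL/6N strain. At 9 to 10 weeks of age they underwent either a sham operation or TAC, a transverse constriction of the aorta that loads the left ventricle with pressure. By echocardiography, done 2 weeks after the operation, 30 TAC mice with an ejection fraction of 40 to 60% and 10 sham mice of normal function were selected. AAV2/9 virus, 1e12 genomes in 100 ul, was then injected into the tail vein. It expressed JP2NT, an N-terminal fragment of the cardiac membrane protein junctophilin-2, or GFP as the control. Hearts were taken 6 weeks after the virus, 8 weeks after surgery. The control vector is represented by 3 sham and 4 TAC libraries (Sham+GFP, TAC+GFP), and JP2NT likewise by 3 sham and 4 TAC libraries (Sham+JP2NT, TAC+JP2NT), 14 in all, so that no group is free of vector. The sources used here give neither the promoter that drives GFP and JP2NT nor whether each library is 1 mouse, and p-values measure only the spread between these samples. Values are the authors' scaled counts, rescaled over all samples, and log2 changes are differences of log2(value + 1).

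Several properties of the libraries bear on the results. Estimated reads per library ran from 8650188 to 14460617, with the commonest low value of a library taken as 1 read. In that unit only 1.106% to 2.847% of the values above 0 were whole to within 0.001, so these depths are rough. Replicates 1 and 2 of Sham+JP2NT agreed almost to within sampling noise and were therefore averaged into 1 sample, which leaves 2 samples in that group and 13 in all. On the first principal component of all tested genes, which held 50.2% of the variance, TAC+JP2NT replicate 4 lay at -5.6, between the sham samples at -42.1 to -38.9 and the other TAC samples at 20.3 to 42.8. Jph2, the gene of junctophilin-2, measured 5889 to 6618 in TAC+GFP and 6061 to 6759 in TAC+JP2NT, which overlap, and whether vector RNA was counted under this gene is unknown here. The share of the summed values held by the 78 genes ran from 0.514% to 0.647% over the 13 samples.

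The promoters of 4 genes with large changes in TAC, chosen among those because they hold a match to a motif searched, are shown first. RefSeq promoter windows of 300 bases (250 before to 50 after the transcription start, build GRCm38.p6) were matched for 69 of the 78 genes, which have 75 windows. They were searched on both strands for the letters GCATGCGC (NRF1), CCGGAAG (GABPA) and AAGATGGC (YY1), 3 factors known to act on nuclear genes of mitochondrial proteins. Capitals mark a match on either strand. The windows of Mrpl37 and Mrpl42, which were lower in TAC, are chr4:107066817-107067116 and chr10:95501900-95502199 on the minus strand, and each holds 1 match to the YY1 letters. The windows of Mrpl33 and Mrpl53, which were higher in TAC, are chr5:31613701-31614000 and chr6:83108858-83109157 on the plus strand. The first holds a match to the NRF1 letters and 1 to the GABPA letters, and the second holds 2 to the GABPA letters.
Mrpl37: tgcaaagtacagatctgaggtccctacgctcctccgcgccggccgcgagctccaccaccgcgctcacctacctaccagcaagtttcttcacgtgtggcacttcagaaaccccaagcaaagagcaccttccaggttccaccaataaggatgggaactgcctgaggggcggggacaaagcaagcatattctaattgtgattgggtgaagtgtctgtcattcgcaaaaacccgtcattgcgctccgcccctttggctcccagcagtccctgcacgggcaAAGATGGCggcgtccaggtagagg
Mrpl42: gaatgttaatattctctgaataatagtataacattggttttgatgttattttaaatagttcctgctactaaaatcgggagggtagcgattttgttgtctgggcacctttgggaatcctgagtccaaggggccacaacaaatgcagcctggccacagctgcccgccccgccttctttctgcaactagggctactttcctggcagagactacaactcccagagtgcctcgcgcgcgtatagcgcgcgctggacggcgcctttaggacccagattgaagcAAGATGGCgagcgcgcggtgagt
Mrpl33: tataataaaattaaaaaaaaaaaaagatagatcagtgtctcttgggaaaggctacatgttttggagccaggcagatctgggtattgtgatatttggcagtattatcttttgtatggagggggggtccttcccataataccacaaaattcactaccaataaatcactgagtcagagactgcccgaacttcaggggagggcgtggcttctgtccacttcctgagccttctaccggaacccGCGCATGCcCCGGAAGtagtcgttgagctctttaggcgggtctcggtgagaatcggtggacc
Mrpl53: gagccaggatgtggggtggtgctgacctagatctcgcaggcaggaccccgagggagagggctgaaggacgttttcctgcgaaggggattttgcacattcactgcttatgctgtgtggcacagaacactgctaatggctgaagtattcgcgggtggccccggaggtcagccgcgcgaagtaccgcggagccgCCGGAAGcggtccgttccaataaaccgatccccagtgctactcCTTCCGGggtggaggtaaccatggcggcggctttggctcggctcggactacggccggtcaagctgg

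The GABPA letters occurred in 26 of the 75 windows of mitochondrial ribosomal protein genes (34.7%), against 16.5% of 13258 windows of tested genes and 8.86% of all 32851 windows. For the YY1 letters the shares were 16% of the members' windows, 4.16% of tested and 2.75% of all windows. For the NRF1 letters they were 10.7%, 4.9% and 2.71%. Of the 26 windows of members called lower in TAC+GFP, 6 held the YY1 letters and 3 the GABPA letters. Of the 7 windows of members called higher, 0 held the YY1 letters and 4 the GABPA letters. These are matches of letters in small numbers of windows, given as a description and not as sites of binding.

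The first comparison, TAC+GFP against Sham+GFP, asks how pressure overload alone changed these genes under the control vector. Of the 78 genes, 26 fell and 8 rose (limma-trend, Benjamini-Hochberg adjusted p under 0.05 over 13212 tested genes), and 44 were not called. The 26 are 33.3% of the members where 24.8% of all tested genes were called lower, and the 8 are 10.3% where 23.3% were called higher. The members' share called in either direction was 43.6%, against 48.1% of all tested genes. The median log2 change was -0.16, against 0.00 over all tested genes (-0.004), and 51 members were below 0 and 27 above. All 4 TAC+GFP samples lay below all 3 Sham+GFP samples in 34 members and above them in 12, while 32 overlapped. Together the 46 without overlap compare with 53.1% of all tested genes. The 78 genes thus moved in both directions around a median slightly below 0. Ventricle is a mixture of cells, and in bulk samples fewer cells of a type and less RNA per cell cannot be told apart.

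**Figure D1:**
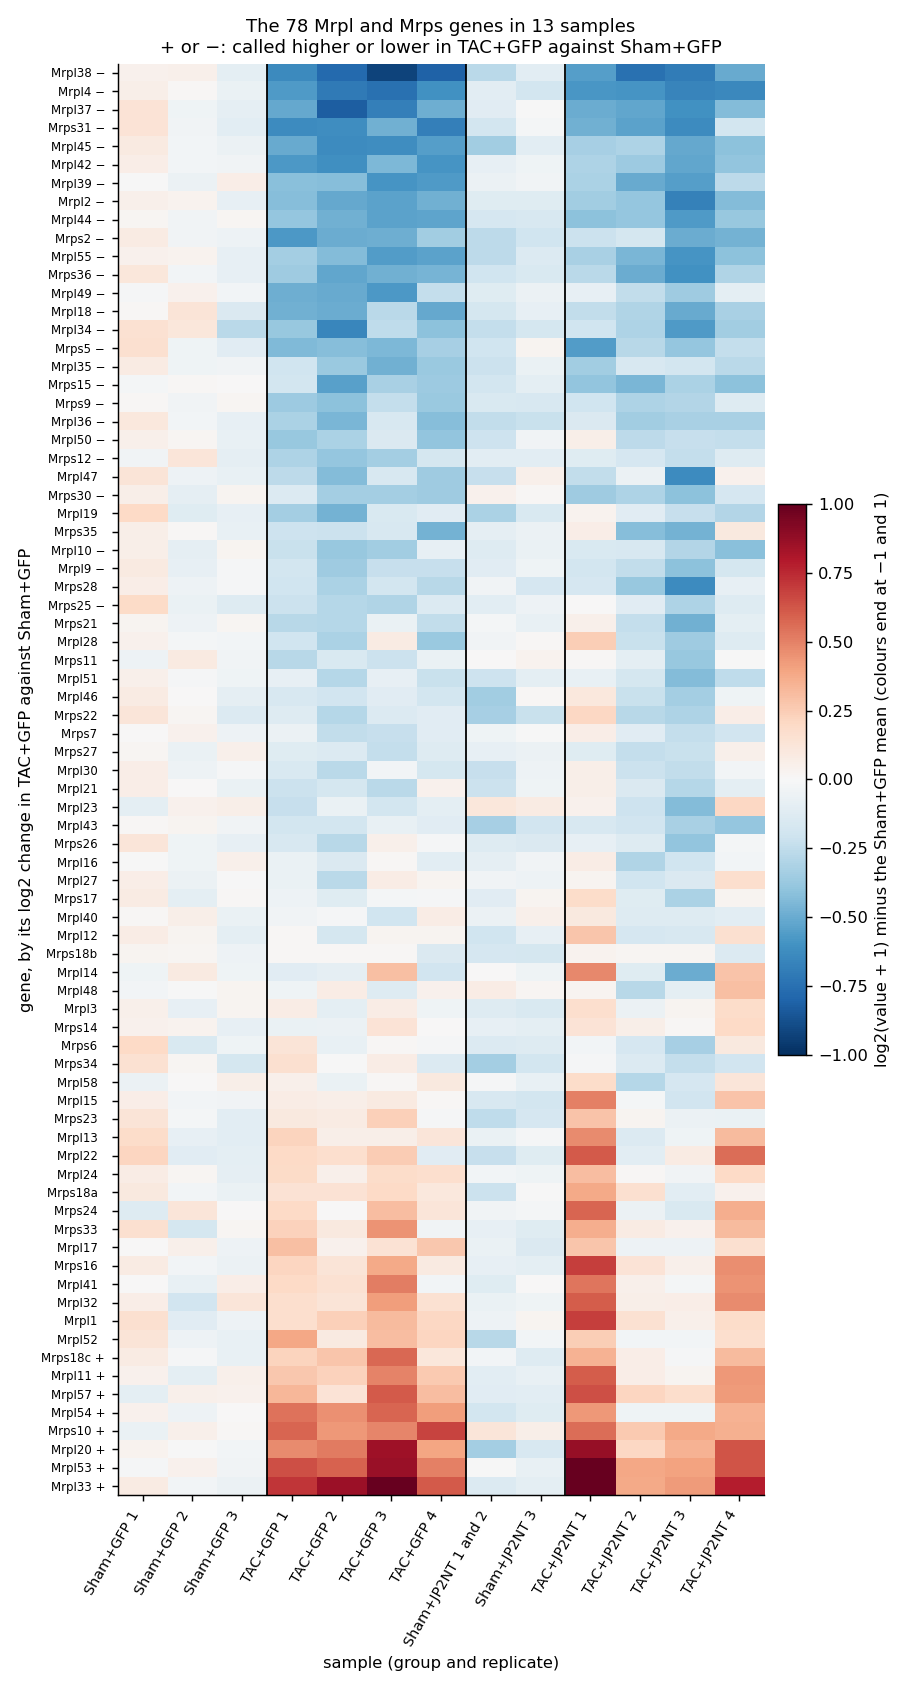
Each row is 1 of the 78 genes and each column 1 of the 13 samples, and colour gives log2(value + 1) minus the Sham+GFP mean. Rows are ordered by the log2 change in TAC+GFP against Sham+GFP, with a minus sign on the 26 called lower and a plus sign on the 8 called higher. The 26 lower genes are below the Sham+GFP mean in all 8 TAC samples, with the exception of Mrpl50 and Mrps25 in TAC+JP2NT replicate 1 (genes named after their values were seen), and the 8 higher genes are above it in all 4 TAC+GFP samples and in TAC+JP2NT replicates 1 and 4.

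Of the 22 large-subunit genes without a bacterial counterpart, 10 fell and 3 rose. These are 45.5% and 13.6%, against 24.8% and 23.3% of all tested genes. Mrpl38 (chr11:116131817-116138868, minus strand, GRCm38, GENCODE M21) had the largest decrease of the 78 genes. It measured 925.6, 932.2 and 841.3 in Sham+GFP and 578, 524, 473.2 and 512.9 in TAC+GFP. Each TAC+GFP value is thus far below each Sham+GFP value, and the log2 change was -0.79 (SE 0.085, adjusted p = 6.05e-06), a 1.72-fold decrease. Mrpl37 measured 1348, 1191 and 1157 in Sham+GFP and 862.3, 693.4, 765.5 and 874 in TAC+GFP, without overlap, with a log2 change of -0.63 (SE 0.086, adjusted p = 4.3e-05). Mrpl45, whose protein lies at the exit of the peptide tunnel and ties the ribosome to the inner membrane, measured 1471, 1352 and 1323 in Sham+GFP and 975.6, 893.3, 899.5 and 941.4 in TAC+GFP. It fell by 0.57 on the log2 scale (SE 0.0742, adjusted p = 2.68e-05). Mrpl42, the most abundant of the genes that fell, went from 3808 ± 157 (SD, n = 3) to 2589 ± 138 (SD, n = 4), a log2 change of -0.56 (SE 0.0645). The annotation holds a near-identical copy of it, Gm6419, to which the counting could have assigned some of its reads. Mrpl39, Mrpl44 and Mrpl55 fell by 0.50, 0.48 and 0.47 on the log2 scale. Mrpl44, which has the fold of an RNase III enzyme and is the 1 of the 4 cardiomyopathy genes above with a called change, measured 907.4, 873.5 and 907.4 in Sham+GFP and 685.2, 642.6, 619.2 and 621.4 in TAC+GFP (SE 0.0657, adjusted p = 4.21e-05).

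Among the 29 large-subunit genes with a bacterial counterpart, 8 fell and 3 rose. The shares were 27.6% and 10.3%, the first near the 24.8% of all tested genes and the second below the 23.3%. Mrpl4 (chr9:21002738-21008839, plus strand), a protein of the peptide exit tunnel, measured 1520, 1475 and 1393 in Sham+GFP and 985.7, 894, 872.6 and 957.9 in TAC+GFP. The groups are well apart, and the log2 change of -0.66 (SE 0.0621) had the smallest adjusted p of the 78 genes, 1.96e-06. Mrpl2, whose bacterial counterpart lies near the catalytic centre, measured 960.9, 951.2 and 880.1 in Sham+GFP and 690.4, 652.5, 642.9 and 667.8 in TAC+GFP, a log2 change of -0.49 (adjusted p = 0.000142).

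In the small subunit 7 of 26 genes fell and 2 rose, 26.9% and 7.69%, against 24.8% and 23.3% of all tested genes. By kind, 5 fell and 2 rose of the 16 with a bacterial counterpart, and 2 fell and 0 rose of the 10 without. Mrps31, of the latter kind, measured 708.4, 629.8 and 599 in Sham+GFP and 416.2, 418.2, 460.7 and 399.7 in TAC+GFP, with no overlap and a log2 change of -0.61 (SE 0.101, adjusted p = 0.000212). Mrps2 measured 589.8, 545.6 and 538.9 in Sham+GFP and 375.2, 394.5, 397.2 and 437.3 in TAC+GFP, a log2 change of -0.48 (SE 0.09, adjusted p = 0.000571). The medians of both subunits were close, -0.14 for the large and -0.16 for the small. Mrps36, the oxoglutarate dehydrogenase subunit, fell by 0.45 on the log2 scale (adjusted p = 0.000536), from 875.4 ± 63.4 (SD, n = 3) to 638.5 ± 30.3 (SD, n = 4), and has 4 near-identical copies in the annotation.

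The 8 genes that rose were Mrpl33, Mrpl53, Mrpl20, Mrps10, Mrpl54, Mrpl57, Mrpl11 and Mrps18c. Mrpl33 (chr5:31596935-31664384, plus strand), a small protein of the large subunit with a bacterial counterpart, measured 710.5, 661.7 and 647.3 in Sham+GFP and 1105, 1217, 1515 and 1032 in TAC+GFP. Every TAC+GFP sample exceeded every Sham+GFP sample, replicate 3 by the most, and the log2 change was 0.84 (SE 0.148, adjusted p = 0.000331), a 1.79-fold increase. Mrpl53, known in mitochondria alone, measured 674, 700.9 and 661.1 in Sham+GFP and 1063, 1023, 1236 and 963.3 in TAC+GFP, a log2 change of 0.65 (SE 0.13, adjusted p = 0.00087). Mrpl20, whose bacterial counterpart binds ribosomal RNA early in assembly, measured 575.9, 562.5 and 551.7 in Sham+GFP and 780.3, 809.2, 1012 and 741.6 in TAC+GFP. Its log2 change was 0.56 (SE 0.136, adjusted p = 0.00362). Replicate 3 was again the highest TAC+GFP sample. Mrps10, of the small subunit, measured 213.4, 232.3 and 225.7 in Sham+GFP and 334.9, 303.1, 313.9 and 357.3 in TAC+GFP, a log2 change of 0.55 (SE 0.088, adjusted p = 0.000166). Mrpl54 rose by 0.50 on the log2 scale, from 672.2 ± 22.4 (SD, n = 3) to 953.7 ± 49.9 (SD, n = 4).

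Mrpl57, Mrpl11 and Mrps18c rose by 0.35, 0.31 and 0.30 on the log2 scale with adjusted p of 0.0301, 0.044 and 0.0452, close to the threshold. Without TAC+GFP replicate 3 the log2 changes were 0.26, 0.25 and 0.21, with adjusted p of 0.0863, 0.113 and 0.128. Without any one of the 3 Sham+GFP replicates, or without TAC+GFP replicate 1, all 3 genes also missed the threshold, with log2 changes of 0.30 to 0.37 for Mrpl57, 0.26 to 0.34 for Mrpl11 and 0.26 to 0.34 for Mrps18c. Mrpl11 and Mrps18c missed it even without a Sham+JP2NT sample, which is in neither group compared, at log2 changes unaltered to 2 decimals (adjusted p of 0.0555 to 0.0558). Mrps18c was at 0.11 (adjusted p = 0.34) once a trend on coding length and GC content was removed from each library. For 4 of the 8 genes that rose the counting is uncertain: on the same strand Mrpl33, Mrpl53 and Mrps18c overlap exons of Gm43809, Gm42688 and Gm43511, and Mrps10 has a near-identical copy, AC154457.3. Among all 24 members with such a same-strand overlap or a copy 4 rose and 3 fell. Among the 54 with neither 4 rose and 23 fell, with a median of -0.22. Exon overlap on the other strand, found in 28 members, was left out of this split. Whether the counting used strand is unknown here, so it may be uncertain for some of the 54 too, Mrpl44 and Mrps30 among them.

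**Figure D2:**
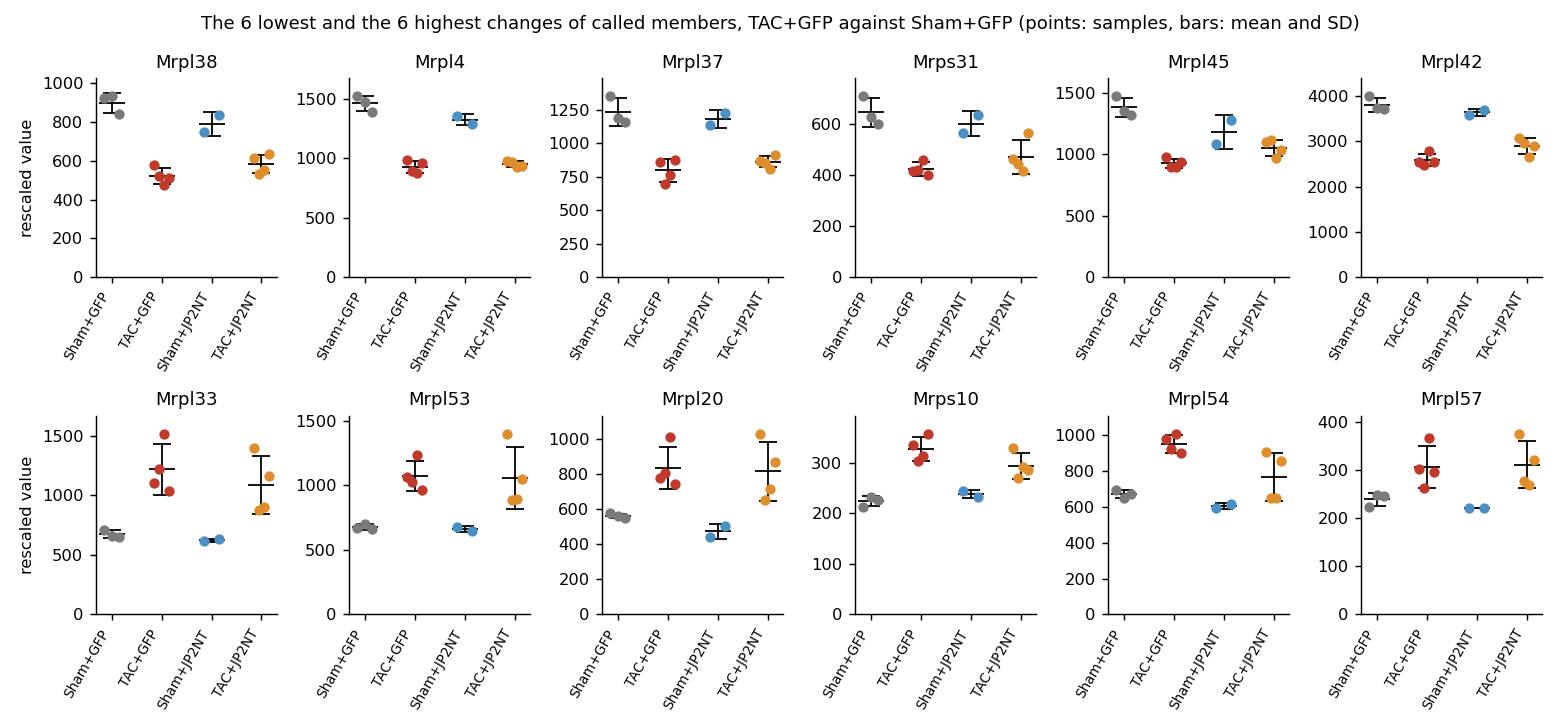
Rescaled values of the 6 called genes with the largest decrease and the 6 with the largest increase in TAC+GFP against Sham+GFP, with 1 point per sample, the mean and the SD, on axes that start at 0. In the top row the TAC+GFP points lie below all Sham+GFP points, for example 473.2 to 578 against 841.3 to 932.2 for Mrpl38, and in the bottom row they lie above them.

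The genes linked to cardiomyopathy other than Mrpl44 were not called. Mrpl3, of the large subunit, measured 1204, 1096 and 1184 in Sham+GFP and 1220, 1085, 1221 and 1128 in TAC+GFP, which overlap, and its log2 change was 0.00 (0.002, 95% interval -0.15 to 0.16). Mrps14 was at 0.00 (0.004) with an interval of the same bounds to 2 decimals, -0.15 to 0.16. Mrps22 was at -0.16 (95% interval -0.42 to 0.09, adjusted p = 0.281). Mrpl12, the stalk protein, was at -0.03 (95% interval -0.25 to 0.19).

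Other genes that serve mitochondrial translation were counted in lists, and differences between lists were not tested. Beside each count stand the 24.8% of all tested genes called lower and the 23.3% called higher in this comparison. Of 16 mitochondrial translation factors 13 fell and 0 rose, with a median log2 change of -0.42. Tufm, the elongation factor that brings aminoacyl-tRNA to the ribosome, went from 3965 ± 133 (SD, n = 3) to 2449 ± 93.3 (SD, n = 4), a log2 change of -0.70 (adjusted p = 6.7e-07). Taco1, the activator of translation of cytochrome oxidase subunit I, and Oxa1l, which inserts the new proteins into the inner membrane, fell by 0.61 and 0.58 on the log2 scale. Of 20 mitochondrial aminoacyl-tRNA synthetases and amidotransferase subunits, the enzymes that charge the tRNAs, 16 fell and 0 rose (median -0.43), led by Sars2 at -0.82 and Qrsl1 at -0.80, with Aars2 at -0.70.

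Of 25 genes of ribosome assembly and ribosomal RNA modification 16 fell and 1 rose (median -0.37). Mettl17, an assembly factor of the small subunit, was at -0.90, Mrm1, a methyltransferase of the large-subunit RNA, at -0.87, and Mtg2, a GTPase of large-subunit assembly, at -0.71. Trub2, a pseudouridine synthase, was the gene that rose, by 0.50. Among 5 ribosome subunits whose symbols fall outside the naming rule, Dap3 and Ptcd3 of the small subunit fell by 0.47 and 0.42 and Chchd1, also of the small subunit, rose by 0.60. Of 11 genes of mitochondrial DNA replication and transcription 6 fell and 0 rose (median -0.39). Twnk, the helicase, was at -0.97 and Polg2, a polymerase subunit, at -0.78. Polrmt, the RNA polymerase, was at -0.52 and Tfam, the DNA-packaging factor, at -0.25 (adjusted p = 0.0356). Tfam missed the threshold without Sham+GFP replicate 1 or 3 (adjusted p = 0.138 and 0.125) and without TAC+GFP replicate 1 or 2 (0.0601 and 0.106). Polg2 missed it without Sham+GFP replicate 2 (-0.71, adjusted p = 0.0585).

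Of 23 genes of protein import 7 fell and 5 rose. The chaperone Hspd1 was at -0.91, Timm50 at -0.43 and Timm21 at -0.38, and the small outer-membrane subunits Tomm20 and Tomm5 at 0.77 and 0.66 and Timm8b at 0.57. Of 12 regulators of mitochondrial gene expression 4 fell and 2 rose. The coactivator Ppargc1b was at -1.13, the nuclear receptor Esrra at -0.56 and the muscle cofactor Perm1 at -0.53, while Myc was at 1.31 and Yy1 at 0.35. Ppargc1a was at -0.05 and not called (adjusted p = 0.738). The proteins that this ribosome makes join nuclear-encoded subunits, and the transcripts of mitochondrial DNA were not analysed here. Among the nuclear subunits of the respiratory chain and ATP synthase, 40 of 79 fell and 0 rose (median -0.24). Of 79 cytosolic ribosomal proteins 52 rose and 2 fell (median 0.34).

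**Figure D3:**
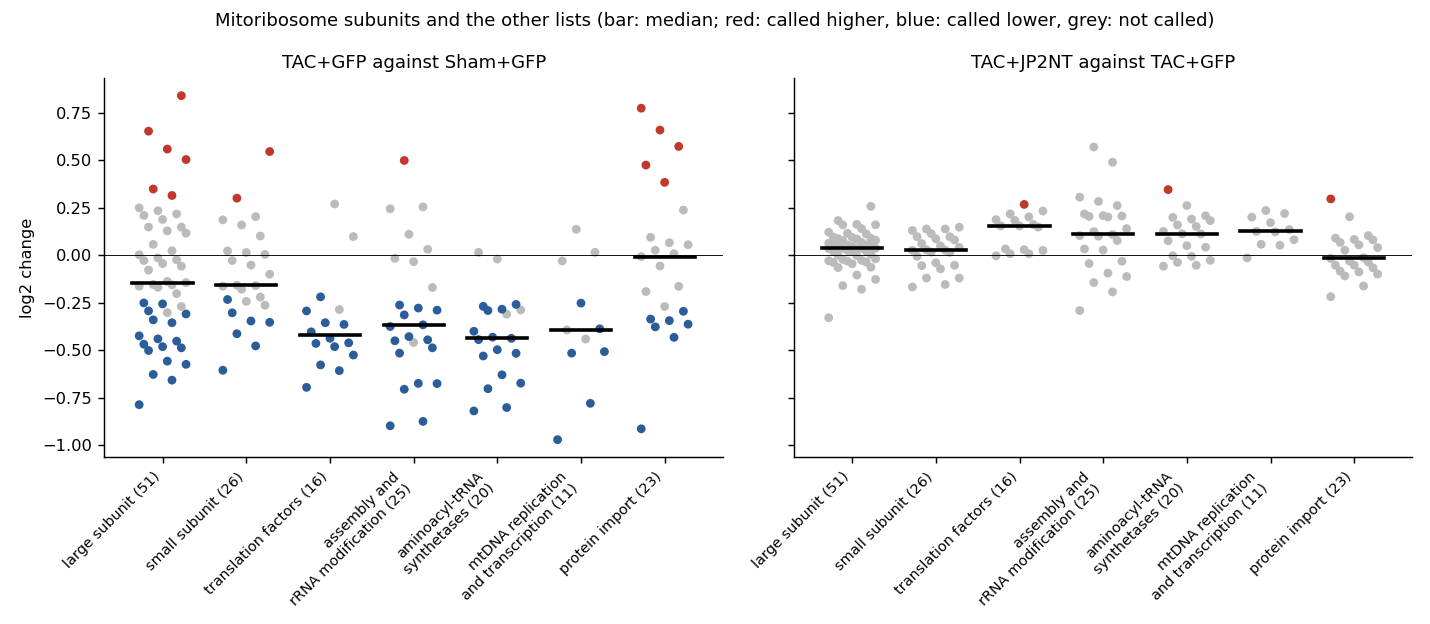
Each point is the log2 change of 1 gene in TAC+GFP against Sham+GFP (left) or TAC+JP2NT against TAC+GFP (right), by list, with the number of genes in brackets and a bar at the median. On the left the medians of the large and small subunits, -0.14 and -0.16, lie nearer 0 than those of the translation factors at -0.42 and the synthetases at -0.43, and on the right no ribosomal protein gene is coloured as called.

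Marker genes of the cell types in the ventricle were examined too. The share called in either direction was 75% of fibroblast markers and 70% of smooth muscle and pericyte markers. It was 50% of cardiomyocyte and of endothelial markers and 25% of macrophage markers, against 48.1% of all tested genes. Summed over 14 cardiomyocyte markers, all detected in every sample, values were 1469000 to 1515000 in Sham+GFP and 966800 to 1105000 in TAC+GFP, with 6 of 14 called lower and 1 higher. Fibroblast markers summed to 28550 to 31900 and 33970 to 44660, with 7 of 12 higher and 2 lower. Smooth muscle and pericyte markers summed to 18170 to 18790 and 10920 to 13100, with 7 of 10 lower. Macrophage and endothelial sums were 5109 to 5422 and 21740 to 23190 in Sham+GFP and 5265 to 6557 and 17960 to 21440 in TAC+GFP, with 1 of 12 and 1 of 10 higher and 2 and 4 lower. The lymphocyte markers Cd3e, Cd3d, Cd3g and Cd8a were at 0 in some samples, with sums of 44.4 to 67.69 and 63.26 to 126.4 for that list of 9, and 0 of the 3 tested were called. Atrial and skeletal muscle markers varied widely, from 555.9 to 3352 in Sham+GFP and from 1413 to 5031 in TAC+GFP, with 0 of 5 tested called and Myh4 at 0 in every sample. The part of cell makeup in the decreases and increases of the ribosomal protein genes was not tested.

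The length of the coding sequence divided the 78 genes. Of the 28 with more than 700 coding bases 15 fell and 0 rose, with a median of -0.28. Of the 22 with more than 500 and up to 700 bases 3 fell and 2 rose (median 0.02), and of the 28 with up to 500 bases 8 fell and 6 rose (median -0.06). The mean log2 difference from Sham+GFP over the 28 long genes was -0.36 to -0.26 in the 4 TAC+GFP samples, and over the 28 short genes -0.08 to 0.12. Over the 78 genes Pearson's r between log2 of coding length and log2 change was -0.45 and Spearman's rho -0.39, a description across genes that share the same libraries. Over 12711 tested genes with a coding length r was -0.03 and rho -0.05.

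Among all tested genes of up to 500 coding bases 31% were higher and 13.3% lower, and among those over 700 and up to 1400 bases 21.2% were higher and 26% lower. With a trend on coding length and GC content removed from each library, 29 members were lower and 7 higher, and Mrpl33 was at 0.54 in place of 0.84. Of all tested genes 23.3% were then lower and 22.5% higher. The coding sequences of the genes that rose measured 195 bases for Mrpl33, 354 for Mrpl53, 447 for Mrpl20, 405 for Mrpl54, 306 for Mrpl57, 429 for Mrps18c, 576 for Mrpl11 and 603 for Mrps10. Short genes were found among those that fell too, with 306 bases for Mrps36, 381 for Mrpl55 and 426 for Mrpl42. Pearson's r between GC content and log2 change was -0.08 over the members. Under the JP2NT vector the r with log2 of coding length was -0.43, in samples not shared with the first comparison. The part of coding length in the changes of these genes was not tested beyond these values.

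**Figure D4:**
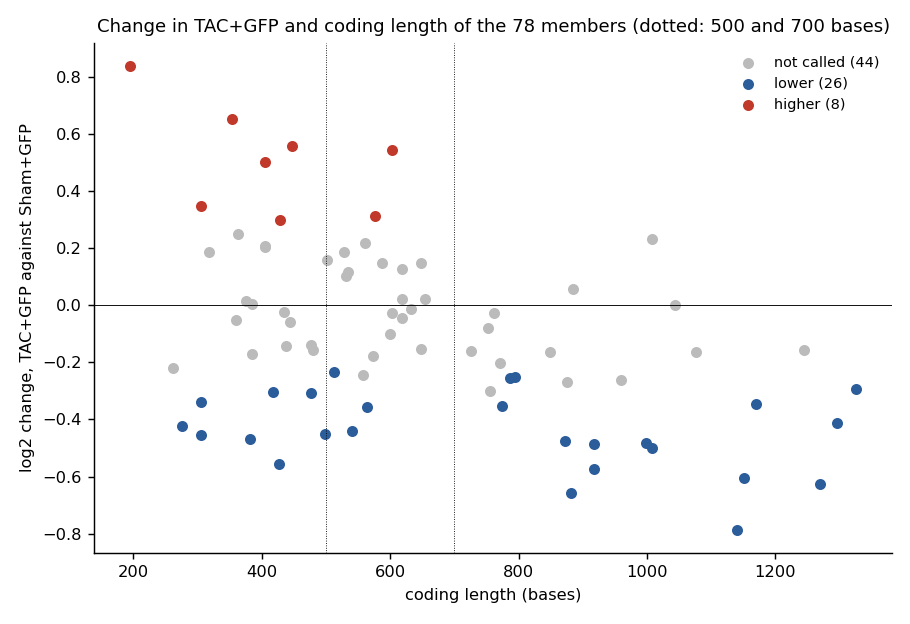
Each point is 1 of the 78 genes, with coding length in bases on the horizontal axis and the log2 change in TAC+GFP against Sham+GFP on the vertical axis. The 8 genes called higher lie between 195 and 603 bases, and beyond 700 bases the called genes are the 15 that fell.

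The same question under the other vector is answered by TAC+JP2NT against Sham+JP2NT, which shares no sample with the first comparison. There 11 members fell and 6 rose, 14.1% and 7.69% of the 78, where 15.8% and 16.1% of all tested genes were called lower and higher and 31.9% in all. The median log2 change was -0.03. The genes that fell most were Mrpl4, Mrpl37, Mrpl38, Mrpl39, Mrps31 and Mrpl2, and those that rose were Mrpl33, Mrpl20, Mrpl53, Mrpl57, Mrps16 and Mrps10. Mrpl4 measured 1357 and 1290 in Sham+JP2NT and 973.7, 970.8, 925.9 and 936 in TAC+JP2NT, a log2 change of -0.48 (SE 0.0704, adjusted p = 0.000292). Mrpl33 measured 612.8 and 629.2 in Sham+JP2NT and 1393, 876.2, 903.7 and 1161 in TAC+JP2NT, a log2 change of 0.78 (SE 0.167, adjusted p = 0.0034). The groups do not overlap in either gene, and TAC+JP2NT replicates 1 and 4 are the high samples of Mrpl33.

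Of the 26 members that fell under GFP all 26 had a negative change under JP2NT, and 11 (42.3%) were called lower there. Over all tested genes 94.6% of the 3270 called lower under GFP were negative under JP2NT, and 53.8% were called lower. The 8 members that rose under GFP were all positive under JP2NT, and 5 (62.5%) were called. Of the 3084 tested genes called higher under GFP, 95.4% were positive under JP2NT and 56.6% were called higher. Of the 17 members called under JP2NT, 16 were called the same way under GFP. The exception was Mrps16, a small-subunit protein with a bacterial counterpart, at 0.43 under JP2NT (adjusted p = 0.0331) and 0.20 under GFP (adjusted p = 0.193). Across the 78 genes the changes under both vectors had a Pearson's r of 0.92, and across all tested genes 0.77, as a description.

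These counts under JP2NT depend on few sham samples. Without Sham+JP2NT replicate 3, 1 member was called lower and 2 higher, 3.85% in all, where 14.1% of all tested genes were called. Without the averaged replicates 1 and 2, 4 were lower and 3 higher, 8.97% against 14.8% of all tested genes. With 14 separate libraries 17 members were called higher in place of 6, 21.8% against 20.3% of all tested genes. Without TAC+JP2NT replicate 4, which stood apart on the principal component, 13 fell and 6 rose, 24.4% against 37.8%. Without TAC+JP2NT replicate 3, 2 or 1 the number higher was 13, 11 or 4, which is 16.7%, 14.1% or 5.13% of the members, against 15%, 13.2% or 13.1% of all tested genes.

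**Figure D5:**
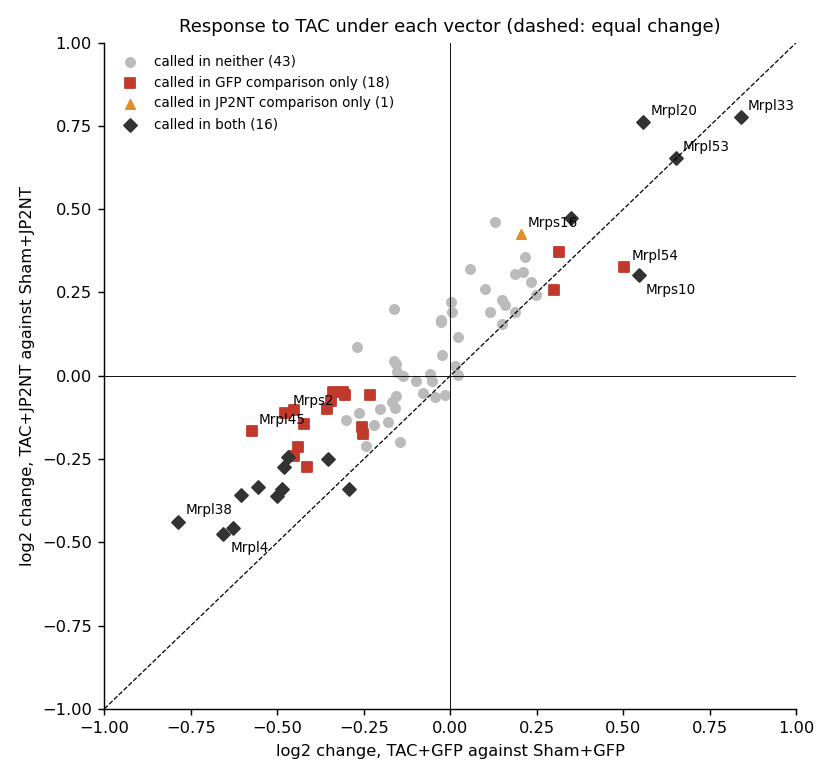
Each point is 1 of the 78 genes, with its log2 change in TAC+GFP against Sham+GFP on the horizontal axis and in TAC+JP2NT against Sham+JP2NT on the vertical axis, and the dashed line marks equal change. The 16 genes called in both comparisons lie in the lower left and upper right, Mrps16 is the 1 gene called under JP2NT alone, and Mrpl45 and Mrps2 are among 18 called under GFP alone.

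TAC+JP2NT against TAC+GFP asks how the JP2NT vector differed from the GFP vector in the overloaded heart. No member passed the test: 0 of 78 were called by limma, where 6.02% of all tested genes were called. At an unadjusted p under 0.05, 3 members were higher and 1 lower, 5.13% of the 78, against 22.5% of all tested genes. In all 78 genes the 4 TAC+JP2NT samples overlapped the 4 TAC+GFP samples, where 10.7% of all tested genes showed no overlap. The median log2 change was 0.04, and -0.05 with the values as deposited, without joint rescaling. That scaling also moved the calls over all genes from 363 higher and 433 lower to 226 and 1191.

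The smallest p belonged to Mrpl54, Mrpl49 and Mrpl42. Mrpl54 measured 980.6, 924.8, 1009 and 900.4 in TAC+GFP and 907.8, 651.8, 652.3 and 857 in TAC+JP2NT. Replicates 2 and 3 of TAC+JP2NT lie at the sham level and replicates 1 and 4 near the TAC+GFP values, and the log2 change was -0.33 (SE 0.0983, adjusted p = 0.0617). Without TAC+JP2NT replicate 1 or 4 it passed the threshold (adjusted p = 0.0255 and 0.0383), as it did with the values as deposited (0.0175). Mrpl49, a protein of the large subunit known in mitochondria alone, measured 429, 422.4, 402.7 and 509.6 in TAC+GFP and 569, 505.8, 469.4 and 561.7 in TAC+JP2NT, a log2 change of 0.26 (SE 0.0825, adjusted p = 0.0786). It passed without TAC+GFP replicate 4, the sample that overlaps (adjusted p = 0.0194), and without TAC+JP2NT replicate 3 (0.0367). Mrpl42 was at 0.16 (adjusted p = 0.123), and at 0.20 (0.0476) without TAC+JP2NT replicate 3.

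Intervals show what these samples could exclude under a spread shared by all groups. The members' median SD was 0.161 in TAC+JP2NT and 0.1 in TAC+GFP, against 0.0737 in Sham+GFP and 0.0438 in Sham+JP2NT. The intervals do not take in this difference. For Mrpl38 the log2 change between vectors in TAC hearts was 0.16 (95% interval -0.01 to 0.33), for Mrpl4 0.04 (-0.08 to 0.16) and for Mrpl44 0.05 (-0.08 to 0.18). For Mrpl33 it was -0.18 (-0.47 to 0.11). For the other genes of interest it was 0.08 for Mrpl3, 0.05 for Mrpl12, 0.10 for Mrps14, 0.09 for Mrps22 and 0.04 for Mrps36, none of them called. In other lists TAC+JP2NT was higher in 1 of 16 translation factors (Taco1, 0.27, adjusted p = 0.0445), 1 of 20 synthetases (Qrsl1, 0.35, 0.041), Ptcd3 among the 5 other subunits (0.23, 0.042), 1 of 23 import genes (Hspd1, 0.30, 0.0201) and 1 of 12 regulators (Ppargc1b, 0.64, 0.0269), and lower in 0 genes of these lists. All 5 missed the threshold in a fit of the TAC samples alone, with adjusted p of 0.0587 to 0.133. Taco1, Qrsl1 and Ptcd3 also missed it without TAC+JP2NT replicate 1 (adjusted p = 0.091, 0.0831 and 0.0846). They missed it as well without any one of the Sham+GFP replicates, which are in neither group compared (adjusted p of 0.0544 to 0.0674). Ppargc1b missed it without TAC+GFP replicate 1, 2 or 3 (0.0749, 0.0899 and 0.052), and Hspd1 with a spread per group (0.0543). The median of the 16 translation factors was 0.15.

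The TAC+JP2NT samples differed among themselves. The mean log2 difference from Sham+GFP over the 78 genes was 0.08 and -0.01 in TAC+JP2NT replicates 1 and 4 and -0.16 and -0.25 in replicates 2 and 3. In TAC+GFP it was -0.17 to -0.05 and in Sham+JP2NT -0.14 and -0.08. Cytosolic ribosomal proteins followed the same order within TAC+JP2NT, at 0.42, 0.26, 0.08 and -0.07 in replicates 1, 4, 2 and 3. Summed cardiomyocyte markers were 1046000 to 1251000 in TAC+JP2NT and smooth muscle and pericyte markers 14210 to 16690, the first overlapping and the second above the TAC+GFP range. Their part in the differences between vectors was not tested. The median SD of log2 values within TAC+JP2NT was 0.161 over the 78 genes and 0.176 over all tested genes. In TAC+GFP it was 0.1 and 0.158, and in Sham+GFP 0.0737 and 0.107.

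Sham+JP2NT against Sham+GFP asks how the JP2NT vector differed from the GFP vector without overload. 0 members were called by limma, and 0% of all tested genes were called. At an unadjusted p under 0.05, 5 members were lower and 0 higher, 6.41% and 0% of the 78, against 2.63% and 1.66% of all tested genes. The changes were mostly of 1 sign across these genes, which share their libraries, with 73 members below 0 and 5 above and a median of -0.10, where the median of all tested genes was -0.01 (-0.008). Both Sham+JP2NT samples lay below all 3 Sham+GFP samples in 33 members and above them in 2, together 35 of 78, where 29.9% of all tested genes showed no overlap. Mrpl43 measured 556.5, 563.2 and 540.7 in Sham+GFP and 439.5 and 483.5 in Sham+JP2NT, a log2 change of -0.26 (SE 0.0869, adjusted p = 0.997). Mrpl45 and Mrps34 were at -0.23 and -0.26 with the same adjusted p. With the values as deposited, the median was -0.18, and that of all tested genes -0.08 (-0.084).

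The interaction of surgery and vector, the test of whether the response to TAC differed between vectors, called 0 members by limma, where 0.0757% of all tested genes were called. At an unadjusted p under 0.05, 8 members were above 0 and 0 below, 10.3% and 0% of the 78, against 6.18% and 5.18% of all tested genes. Its median was 0.14, with 68 members above 0, where the median of all tested genes was 0.01 (0.013) and 6887 of 13212 were above 0. The interaction is the difference between vectors in TAC hearts minus that in sham hearts. Over the members these had medians of 0.04 and -0.10, the latter with 2 Sham+JP2NT samples. Mrpl45 had the smallest p, with an interaction of 0.41 (SE 0.112, adjusted p = 0.174), followed by Mrps9 at 0.27 (adjusted p = 0.31) and Mrpl38 at 0.35 (adjusted p = 0.321). Mrpl45 measured 1087 and 1280 in Sham+JP2NT and 1098, 1113, 966.5 and 1036 in TAC+JP2NT, which overlap, in contrast to its separated groups under GFP. The difference in response of Mrpl45 between vectors did not pass the test.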

How the data were processed

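Poly(A) RNA of 14 ventricle libraries was sequenced as stranded paired-end reads, per the labels' protocols. FastQC 1.0.0, STAR 2.6.1a, Salmon and build mm10 are named in the submitters' processing notes. The values deposited by the authors are a signal per gene: estimated counts divided by a factor per library, scaled separately within the GFP and the JP2NT libraries, from which whole reads could not be recovered. Whether strand was used in counting is unknown here.

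The 14 libraries were rescaled together by trimmed mean ratios (30% of ratios and 5% of levels trimmed) and put on log2(value + 1). Genes at 10 or more in at least 3 samples were kept, 13212 of 24972 listed. Sham+JP2NT replicates 1 and 2 were averaged, because their variance was 1.33 times that of counting noise, against 2.4 to 28.7 for the other 17 pairs within groups. Counting noise was taken from the roughly estimated reads. limma 3.58.1 (trend) in R 4.3.3 fitted group means to the 13 samples, with 9 residual and 5.73 prior degrees of freedom, two-sided, with Benjamini-Hochberg adjustment at 0.05 over all tested genes. The fit was checked on simulated data that had the same spread in every group. Precision is limited by 2 to 4 samples per group.

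Named genes were the called members with the largest log2 change (up to 12 per direction under GFP, up to 6 elsewhere), the 3 of smallest p where none was called, up to 3 per direction of each other list, and 12 genes fixed by role (Mrpl3, Mrpl12, Mrpl44, Mrps14, Mrps22, Mrps36, Dap3, Ptcd3, Tufm, Tfam, Ppargc1a, Esrra). The members and lists were chosen with earlier results of these data known. The lists of cytosolic ribosomal proteins and of nuclear subunits of the respiratory chain and ATP synthase were added after the tables were seen. Alternatives were other scalings, pseudocounts, filters, sample sets and a replicate block, leaving out each sample, and a correction for coding length and GC content. Annotation was GENCODE M21 (GRCm38, the build mm10). Figures were drawn with matplotlib 3.10.9.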

Additional observations from a re-analysis of the deposited data

Results flagged for a closer look

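Values of the named members were examined in the groups of 4 samples, 58 groups in all, for a single sample far from the others, which chance gives in about 5% of groups. There were 3, all in TAC+GFP, which is about the number that chance gives. Mrpl11 measured 942.4 in replicate 3, against 782.2 to 805.4 in the other samples, and its increase in TAC+GFP missed the threshold without that replicate (adjusted p = 0.113). Mrpl12 measured 3012 in replicate 2, against 3422 to 3456. Mrps22 measured 229.5 in the same replicate, against 254.5 to 258.6. Neither Mrpl12 nor Mrps22 was called in TAC+GFP against Sham+GFP. No cause was tested.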

How the results depend on the processing

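No named result changed direction while called under any of the 26 alternatives run, and 26 of the 34 calls in TAC+GFP against Sham+GFP (21 lower, 5 higher) were made in all 26. In that comparison, leaving out 1 sample at a time gave 5 to 9 members higher and 22 to 29 lower, with 5 higher without Sham+GFP replicate 2 or 3 or TAC+GFP replicate 1 or 3. Over all tested genes it gave 2514 to 3254 higher and 2691 to 3439 lower, against 3084 and 3270. Of the members, leaving out 1 sample gave 0 to 2 higher and 0 to 1 lower in TAC+JP2NT against TAC+GFP, against 0 and 0. Over all tested genes it gave 109 to 518 higher and 163 to 582 lower there, against 363 and 433. With the values as deposited 1 of the 78 members was lower there, where 9% of all tested genes were lower. With the coding length and GC trend removed, an alternative chosen after seeing the data, 2 of the 78 were higher there, where 3% of all tested genes were higher.

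In TAC+JP2NT against Sham+JP2NT 3 of 17 calls were made in all 26. Of all tested genes 16.1% were called higher there. That share was 20.3% with 14 separate libraries, 19.1% with a spread per group and 13.3% with the closest TAC libraries averaged. The count of members higher was 17, 13 and 10 with these 3 alternatives, against 6. Leaving out 1 sample gave 2 to 13 higher and 1 to 13 lower. A Sham+JP2NT sample left alone in its group was assumed to vary like the other groups. The cause of these shifts was not tested.

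Replicate numbers did not pair the samples, since the 19 correlations of same-numbered deviations ran from -0.171 to 0.076. With the replicate number as a block and 14 separate libraries, 1 member was higher and 1 lower in TAC+JP2NT against TAC+GFP, 17 were higher in TAC+JP2NT against Sham+JP2NT, and 6 were higher and 28 lower in TAC+GFP against Sham+GFP. In these comparisons 3.53%, 20.9% and 24.1% of all tested genes were then called higher. The shares called lower were 4.13%, 20.6% and 25.6%. Over all genes, the 796 calls between TAC groups became 1417 with the values as deposited, 405 with a spread per group, 172 with the compared groups alone and 157 with the closest TAC libraries averaged. They became 397 or 272 without TAC+GFP replicate 1 or 2 and 482 or 455 without TAC+JP2NT replicate 1 or 2, within a range of 272 to 1058 on leaving out 1 sample. The 10 interaction calls became 126 with 14 separate libraries, 78 with the block, 82 with a spread per group, 6 without a filter and 4 with the closest TAC libraries averaged. On leaving out 1 sample they ran from 0, without the averaged Sham+JP2NT replicates, to 59, without TAC+GFP replicate 3, with 52 without TAC+JP2NT replicate 3. Calls over all genes in TAC+JP2NT against Sham+JP2NT, 4219, became 1864 without Sham+JP2NT replicate 3 and 1955 without the averaged replicates.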
